A study of Mus musculus with 11 samples.

Results

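The genes described here were the receptors for the colony-stimulating factors and the ligand CSF-1. Rows of the gene table were matched by symbol to Csf1r, Csf1, Csf2ra, Csf2rb, Csf2rb2, Csf3r and Il3ra, which gave 7 of 14739 genes. Their levels were taken from bulk RNA sequencing of cerebral microglia that had been isolated from aged C57BL/6 mice by sorting for Tmem119. There were 3 wild-type libraries (WT), 3 of genotype Csf1r+/- (Csf1r_het), 3 of genotype Csf2+/- (Csf2_het) and 2 of genotype Csf1r+/-; Csf2+/- (Dhet). The design asks how heterozygosity for Csf1r, Csf2 or both bears on the transcriptome of microglia, and no group lacked both copies of either gene. Ages were 21 months, apart from 20 months for Csf1r_het replicate 1 and 24 months for Csf1r_het replicate 2 and Dhet replicate 2. The labels do not say whether a library came from 1 mouse or from pooled mice, so p-values measure the spread between these libraries.

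CSF-1 and IL-34 bind CSF1R, a receptor tyrosine kinase of the class that also holds KIT and FLT3, and microglia depend on it for survival and proliferation. GM-CSF, the product of Csf2, binds a receptor made of a specific alpha chain (Csf2ra) and a signalling beta chain (Csf2rb) that IL-3 and IL-5 receptors share. Mice carry an extra beta chain, encoded by Csf2rb2, that pairs with the IL-3 receptor alpha chain (Il3ra). The beta chains have no kinase of their own and signal through JAK2 and STAT5, while the G-CSF receptor (Csf3r) is a separate type I cytokine receptor typical of neutrophils.

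The libraries held 21037819 to 53081638 reads assigned to genes, and a single read was worth 0.479 to 1.48 normalized counts. A normalized count is a gene's reads divided by its library's size factor. Haemoglobin genes took 16.1% to 58.8% of the counts, with the highest share in Csf1r_het replicate 2, which also had the largest share of genes at 0 (15.6%, against 4.98% to 9.88% elsewhere). Dhet replicate 2 differed from the other 10 libraries in sex-linked genes, with 717 normalized counts of the Y-linked Ddx3y (0 to 16.3 elsewhere) and 4.02 of Xist (3011 to 8151 elsewhere), so the 2 Dhet libraries differed in these genes as well as in age. Of 14 marker lists, 7 were present in full, and the 10 microglial genes summed to 102439 to 281683 normalized counts in WT, 268236 to 319141 in Csf1r_het, 405579 to 550524 in Csf2_het and 350882 to 426977 in Dhet. The gene used for the sort, Tmem119, averaged 14070 in WT, 16275 in Csf1r_het, 24402 in Csf2_het and 27034 in Dhet. The choroid plexus markers were 5 genes led by Ttr and Enpp2. They summed to 428857 to 696202 in WT, 889863 to 1580190 in Csf1r_het, 912319 to 1208400 in Csf2_het and 282417 to 631984 in Dhet. Both single heterozygotes were thus above WT without overlap. This was common, as 1139 of the 13223 genes tested were so in Csf1r_het and 1449 in Csf2_het. Of the 5 markers, 1 passed as higher in Csf1r_het and 0 in Csf2_het. Over all genes tested 0.431% and 0.809% were called higher in that order. B cell markers summed to 3856 to 11785, 1165 to 11725, 1564 to 2748 and 2615 to 6069 in WT, Csf1r_het, Csf2_het and Dhet. Of these 4 markers, 0 passed against WT. The part of these markers in the receptor values was not tested, and monocyte and neutrophil sums are given beside the receptor chains and Csf3r.

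Csf2rb and Csf2rb2 are near-identical copies, which bears on how reads could be assigned to each. In mm10 coordinates Csf2rb (ENSMUSG00000071713.4) lies at chr15:78325990-78351000 on the forward strand and Csf2rb2 (ENSMUSG00000071714.5) at chr15:78282517-78305603 on the reverse strand. They are transcribed away from each other with 20386 bases between them, and the GENCODE vM21 annotation places no gene in that gap. Their coding sequences, of 2691 and 2637 bases in that annotation, aligned over 2631 bases with 2505 identical (95.2%). Of the 31-base words in their transcripts, the word length that kallisto uses by default, 18.8% of those of Csf2rb and 28.6% of those of Csf2rb2 occur in both genes. The longest identical run covers 242 bases, coding positions 2083 to 2324 in both, and reads inside it cannot be assigned to either copy by sequence. The following 100-base windows hold the most mismatches, which are in capitals, and are shown because reads there do tell the copies apart. Positions are counted from 1 at the A of the start codon, on the coding strand.
Csf2rb 314 to 413: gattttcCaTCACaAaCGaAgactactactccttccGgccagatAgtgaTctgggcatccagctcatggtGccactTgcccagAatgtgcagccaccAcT
Csf2rb2 317 to 416: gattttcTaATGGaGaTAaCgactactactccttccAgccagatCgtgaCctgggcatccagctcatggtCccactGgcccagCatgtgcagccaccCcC
The 17 mismatches of this window include a cluster near its start, whereas the following run is the same in both genes.
Csf2rb and Csf2rb2 2083 to 2324: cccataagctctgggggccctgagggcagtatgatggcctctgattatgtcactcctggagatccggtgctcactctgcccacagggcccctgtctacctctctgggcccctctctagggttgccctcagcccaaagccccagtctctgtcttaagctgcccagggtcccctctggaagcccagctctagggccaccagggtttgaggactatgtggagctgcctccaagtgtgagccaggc

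Promoter windows of 300 bases, from 250 before to 50 after the annotated start, were available from RefSeq (GRCm38.p6) for 5 of the 7 genes. The windows of Csf2ra, Il3ra and Csf2rb2 are shown because these are the GM-CSF and IL-3 receptor genes among those 5. They were searched on both strands for GAGGAA, the core that the macrophage factor PU.1 binds, for TTCNNNGAA, the STAT palindrome, and for TATAAA. Capitals mark matches to GAGGAA or TTCNNNGAA, with the complement TTCCTC marking a match on the other strand.
Csf2ra, chr19:61228369-61228668, reverse strand: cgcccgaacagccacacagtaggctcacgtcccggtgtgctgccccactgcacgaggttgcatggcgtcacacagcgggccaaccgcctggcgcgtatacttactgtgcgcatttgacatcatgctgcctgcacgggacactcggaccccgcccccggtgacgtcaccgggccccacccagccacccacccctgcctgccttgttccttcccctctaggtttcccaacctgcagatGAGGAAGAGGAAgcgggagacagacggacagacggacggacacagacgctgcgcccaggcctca
Il3ra, chr14:14346245-14346544, forward strand: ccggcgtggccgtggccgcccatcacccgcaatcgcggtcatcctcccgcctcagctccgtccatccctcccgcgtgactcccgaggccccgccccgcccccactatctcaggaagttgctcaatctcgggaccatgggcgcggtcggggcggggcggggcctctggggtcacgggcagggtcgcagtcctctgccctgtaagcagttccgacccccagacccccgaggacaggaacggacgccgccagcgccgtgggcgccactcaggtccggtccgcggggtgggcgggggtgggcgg
Csf2rb2, chr15:78305672-78305971, reverse strand: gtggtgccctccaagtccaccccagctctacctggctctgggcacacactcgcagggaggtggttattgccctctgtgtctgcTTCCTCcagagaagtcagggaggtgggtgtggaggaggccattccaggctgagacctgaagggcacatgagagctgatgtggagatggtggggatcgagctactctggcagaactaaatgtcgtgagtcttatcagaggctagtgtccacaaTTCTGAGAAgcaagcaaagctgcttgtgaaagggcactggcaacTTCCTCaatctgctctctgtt
GAGGAA occurred in 28.3% of 32851 promoter windows, TTCNNNGAA in 8.30% and TATAAA in 13.6%. Csf2ra and Csf2rb2 each held 2 matches to GAGGAA, those of Csf2ra directly adjacent to each other, and Csf2rb2 held 1 match to TTCNNNGAA. Csf3r, whose window is not shown, held 1 match to GAGGAA. Il3ra and Csf1 held neither motif, and none of the 5 windows held TATAAA. These are matches of letters and were not tested for binding.

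Csf1r had by far the highest level per length among the 7 genes. Levels per length were normalized counts per kilobase of the longest protein-coding transcript of each gene in GENCODE vM21. Averaged over the 11 libraries they were 10229 for Csf1r, 868 for Csf2ra, 686 for Csf3r, 529 for Csf2rb, 152 for Csf2rb2, 96.0 for Csf1 and 47.4 for Il3ra. The lowest Csf1r library (3620 per kilobase) lay above the highest library of every other member (2343, for Csf2ra in WT replicate 1). The ranges of Csf2ra, Csf3r and Csf2rb overlapped one another, as did those of Csf2rb2, Csf1 and Il3ra. The order below Csf1r differed by genotype. In WT, with overlap between each of the first 3 and its neighbour, it ran Csf2ra (1618 per kilobase), Csf2rb (1035), Csf3r (806), Csf2rb2 (176), Il3ra (85.8) and Csf1 (74.0). In Csf2_het Csf3r (689) stood above Csf2ra (500.1), with ranges that just met, and Csf2rb followed at 277 with a range below both. There Il3ra was last at 16.1 per kilobase, below every Csf1 value in the group. In Csf1r_het Csf2ra (632) was above Csf3r (456) without overlap, and in Dhet Csf3r (844) was above Csf2ra (650.4) with overlap.

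**Figure D1:**
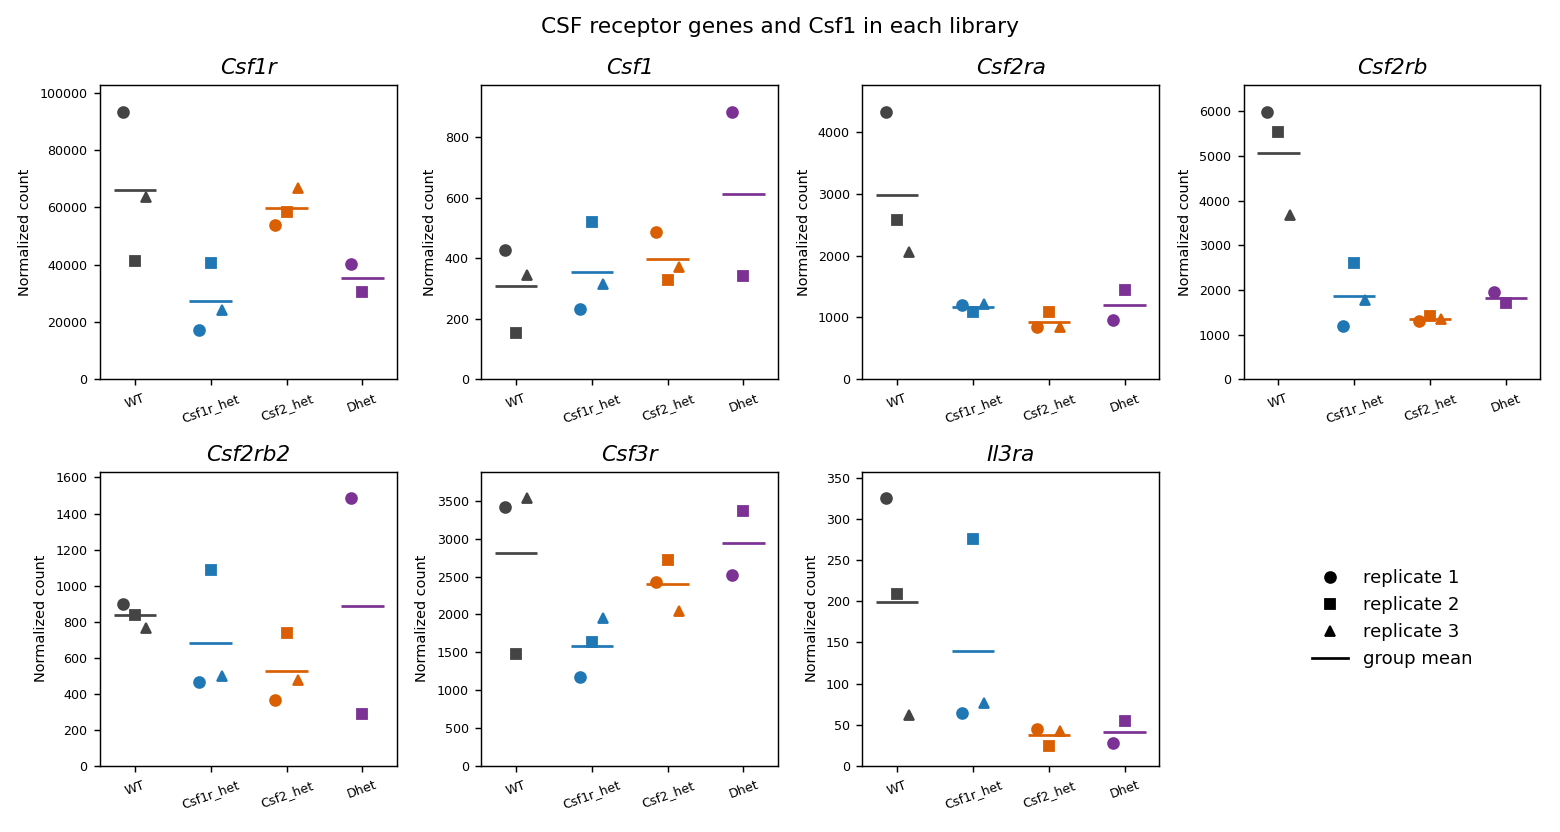
Normalized counts (vertical axes, linear from 0) of the 7 genes in each of the 11 libraries, by genotype group. Circles, squares and triangles are replicates 1, 2 and 3 and lines are group means. All heterozygous libraries lie below all WT libraries for Csf2ra and Csf2rb, and for Csf1r the Csf1r_het and Dhet libraries lie lowest.

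Csf1r (ENSMUSG00000024621.15, mm10 chr18:61105572-61132149, forward strand), the gene deleted in 1 copy in 2 of the groups, served as a check of the labels. WT replicates 1 to 3 carried 93319, 41261 and 63538 normalized counts. Replicates 1 to 3 of Csf1r_het carried 17017, 40567 and 24022. Csf2_het gave 53873, 58211 and 66762 in the same order, and Dhet 40151 and 30254. The 5 libraries with a deleted copy were all below the 6 with both copies, though Csf1r_het replicate 2 lay only just below WT replicate 2. Only 0.159% of the 13223 genes tested, 21 genes, separated these libraries in that direction. Averaged over both Csf2 genotypes, loss of a Csf1r copy went with a log2 difference of -1.03 (95% interval -1.76 to -0.31) in the limma fit, which did not pass over all genes (limma adjusted p = 0.950, with 0 genes called by limma and by edgeR, 47 by DESeq2 and 634 at an unadjusted limma p under 0.05). In Csf1r_het the difference from WT was -1.29 (SE 0.45, limma adjusted p = 0.184). It did not pass with edgeR either (edgeR adjusted p = 0.190). It passed with DESeq2 on the recovered reads (-1.21, DESeq2 adjusted p = 0.0319, where it called 6.58% of genes), with array weights (-1.79, limma adjusted p = 0.00143, among 2602 genes called) and without WT replicate 2 (-1.59, limma adjusted p = 0.0464). In Csf2_het, Csf1r differed from WT by -0.07 (95% interval -1.04 to 0.89), an interval that spans a fall and a rise.

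Csf1 (ENSMUSG00000014599.10, mm10 chr3:107741048-107760469, reverse strand), a ligand of CSF1R that brain cells other than microglia also make, was low in every library. WT gave 428, 154 and 345 normalized counts for replicates 1 to 3, and Csf1r_het 232, 520 and 315. Csf2_het gave 488, 329 and 371, and the Dhet libraries 885 and 342. All groups overlapped, and Dhet replicate 1 alone stood above the rest. The log2 difference from WT was 0.25 in Csf1r_het, 0.46 in Csf2_het and 0.95 in Dhet, the last with an SE of 0.59 and a limma adjusted p = 0.603. The Dhet value was 0.27 without Dhet replicate 1. The sign in Csf1r_het reversed without WT replicate 2 (-0.19) and without Csf1r_het replicate 2 (-0.07).

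Csf2rb, the signalling beta chain of the GM-CSF receptor, was lower in every heterozygous library than in any WT library. Its WT libraries held 5995, 5546 and 3670 normalized counts (mean 5070 ± 1233, SD, n = 3). Csf1r_het replicates were at 1203, 2595 and 1765, and Csf2_het replicates at 1306, 1425 and 1338. The Dhet libraries were at 1957 and 1701. The SD was 61.6 in Csf2_het and 700.2 in Csf1r_het (n = 3 each), so the Csf2_het libraries were the closest to each other. Csf2rb fell in Csf2_het by 1.87 on the log2 scale (SE 0.32, limma adjusted p = 0.00654) and in Csf1r_het by 1.49 (SE 0.32, limma adjusted p = 0.0423). In these comparisons 3.65% and 1.32% of the genes tested were called, and 2.84% and 0.885% of the genes tested were called as lower. In Dhet the difference was -1.44 (SE 0.36, limma adjusted p = 0.136), in a comparison that called 0.529% of genes. The Csf2_het call held in 23 of 23 alternatives, with adjusted p-values from 4.24e-06 to 0.0434. The Csf1r_het call held in 9 of 23, and in 3 of 11 fits that left out 1 library.

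Csf2ra (ENSMUSG00000059326.6, mm10 chr19:61224402-61228418, reverse strand), the chain that gives the receptor its specificity for GM-CSF, was likewise lower in every heterozygous library than in any WT library. The WT libraries held 4333, 2585 and 2056 normalized counts (2991 ± 1191, SD, n = 3). The Csf1r_het libraries held 1195, 1094 and 1217, and Csf2_het 843, 1091 and 841. Dhet gave 962 and 1443. The highest heterozygous library, Dhet replicate 2 (1443), was below the lowest WT library (2056). A lack of overlap below WT was common, at 12.8% of genes in Csf1r_het, 14.3% in Csf2_het and 12.6% in Dhet. Csf2ra fell in Csf2_het by 1.63 on the log2 scale (SE 0.33, limma adjusted p = 0.0157). Its difference was -1.28 in Csf1r_het (SE 0.33, limma adjusted p = 0.0771) and -1.27 in Dhet (SE 0.36, limma adjusted p = 0.222). The Csf2_het call was lost without WT replicate 1 (limma adjusted p = 0.0850), Csf2_het replicate 1 (0.0778) or Csf2_het replicate 3 (0.0635), and held in the 19 other alternatives. DESeq2 on the recovered reads also called both chains in all 3 heterozygous groups, with adjusted p-values of 0.0316 for Csf2ra and 0.00808 for Csf2rb in Dhet, where it called 2.75% of genes. Csf2ra and Csf2rb were among 627 genes (4.74%) with all 8 heterozygous libraries below all 3 WT libraries in the fit.

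**Figure D2:**
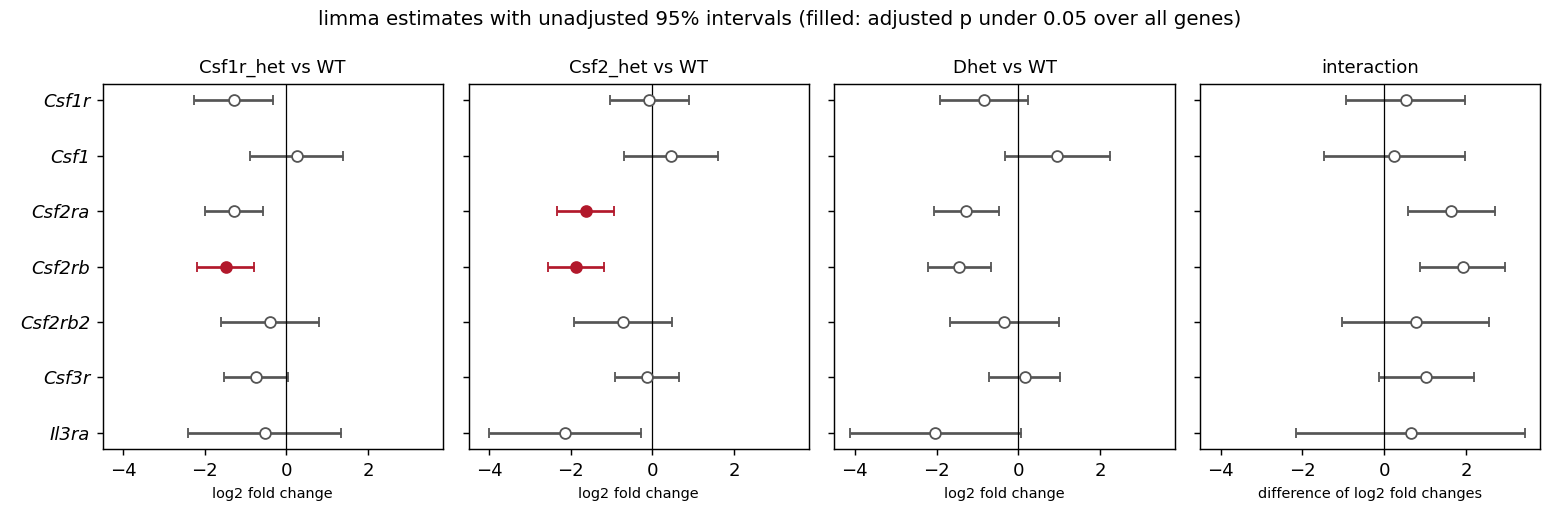
Differences (log2, horizontal axes) of each gene from WT in the 3 heterozygous groups, and their interaction, from the limma fit of all 11 libraries. Points are estimates, bars unadjusted 95% intervals, and filled points have an adjusted p under 0.05 over all genes. Csf2rb is filled in Csf1r_het and Csf2_het and Csf2ra in Csf2_het, and none is filled in Dhet or for the interaction.

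Summed monocyte markers, like both GM-CSF receptor chains, were lower in every heterozygous library than in any WT library. Dhet replicate 1 (70848) lay only just below WT replicate 3 (72939), and 4.74% of the genes tested had this pattern. As single genes, all of the markers passed as lower in Csf2_het and 1 or none in the other heterozygous groups. The 8 genes of the list, led by Chil3 and Plac8, summed to 72939 to 167490 normalized counts in WT, 48229 to 60426 in Csf1r_het, 12189 to 19975 in Csf2_het and 63924 to 70848 in Dhet. All 8 fell in Csf2_het, 1 fell in Csf1r_het and 0 in Dhet, with median log2 differences of -3.21, -1.42 and -0.98. Over all genes tested 2.84%, 0.885% and 0.499% were called lower in that order, with medians of -0.02, -0.12 and 0.02. None of the 8 was at 0 in every library of a group. The WT libraries had the highest sums and the highest Csf2rb and Csf2ra, and Csf2_het had the lowest group mean of each. Not all libraries ranked alike in sum and in Csf2rb. The library with the highest sum, WT replicate 2 (167490), had less Csf2rb than WT replicate 1 (sum 99043). Csf2_het replicates, with the lowest monocyte sums, held 1306 to 1425 of Csf2rb, while Csf1r_het replicate 1 held 1203 at a sum of 50312. Dhet had higher sums than Csf1r_het without overlap, at mean Csf2rb of 1829 and 1854. The single markers did not all go this way. Chil3 averaged 32744 in Dhet and 11531 in Csf1r_het, whereas Plac8 averaged 7317 and 17308. In the fit of Dhet against Csf1r_het 4 of the 8 were higher and 0 passed, with a median log2 difference of 0.007. Over all genes tested 0.00756% were called there, with a median of 0.10. Bulk levels cannot tell fewer monocyte-lineage cells from less receptor RNA per cell, and the part of these markers in the fall of Csf2ra and Csf2rb was not tested. The microglial sum ran the opposite way, being lowest in WT.

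**Figure D3:**
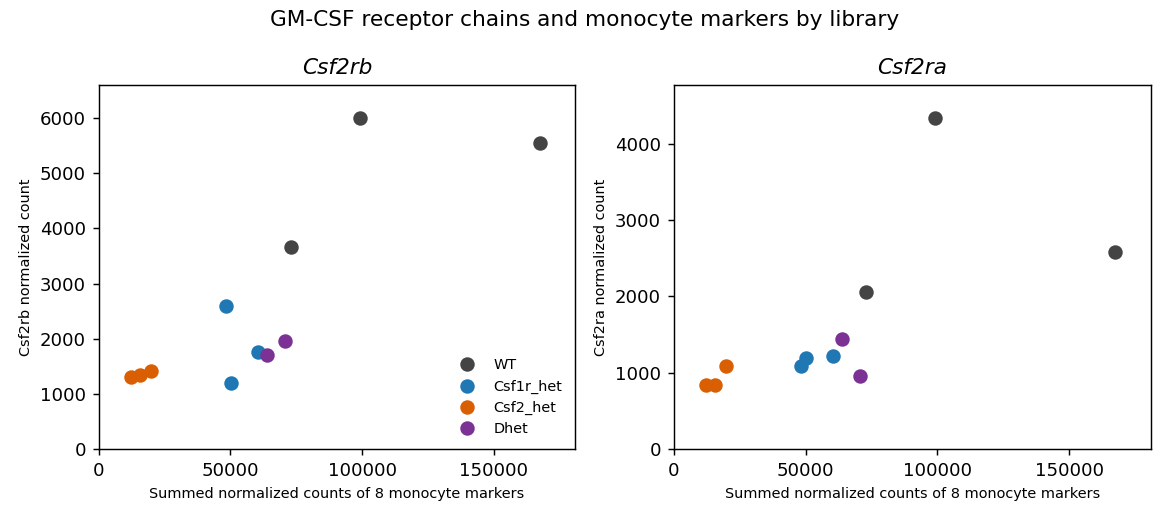
Normalized counts of Csf2rb (left) and Csf2ra (right) against the summed normalized counts of 8 monocyte markers, 1 point per library and both axes linear from 0. WT libraries lie highest on the vertical axes, and the 3 Csf2_het libraries have the lowest sums, from 12189 to 19975.

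The beta chain copy Csf2rb2, known for its part in the IL-3 receptor, overlapped WT in Csf1r_het and in Dhet. WT gave 899.7, 838 and 767 normalized counts, Csf1r_het 466, 1088 and 498, Csf2_het 368, 738 and 477, and Dhet 1484 and 289. Csf1r_het replicate 2 and Dhet replicate 1 were above every WT library, whereas all Csf2_het libraries were below WT, as they were for 14.3% of genes. Csf2rb2 passed in no comparison: the log2 difference was -0.40 in Csf1r_het (95% interval -1.59 to 0.80), -0.72 in Csf2_het (-1.91 to 0.48) and -0.35 in Dhet (-1.68 to 0.99). The Dhet value was 0.83 without Dhet replicate 2. The ratio of Csf2rb to Csf2rb2, chosen after the values were seen, was 6.66, 6.62 and 4.79 in WT. It was 2.58, 2.39 and 3.54 in Csf1r_het, 3.55, 1.93 and 2.81 in Csf2_het, and 1.32 and 5.89 in Dhet. All 6 libraries of the single heterozygotes thus had a lower ratio than the WT libraries, as 1.91% of genes tested did in their ratio to Csf2rb2, while Dhet spanned both ranges.

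Since shared reads can be split either way between the copies, their sum was also examined. The sum of Csf2rb and Csf2rb2 was 6894, 6383 and 4436 normalized counts in WT, 1669, 3682 and 2263 in Csf1r_het, 1674, 2163 and 1815 in Csf2_het, and 3441 and 1990 in Dhet. Again each heterozygous library was below each WT library. With the sum in place of Csf2rb, the log2 difference was -1.63 in Csf2_het (SE 0.34, limma adjusted p = 0.0215), which passed. In Csf1r_het it was -1.27 (SE 0.34, limma adjusted p = 0.0947) and in Dhet -1.15 (SE 0.38, limma adjusted p = 0.327), which did not.

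Il3ra (ENSMUSG00000068758.8, mm10 chr14:14346275-14356011, forward strand), the IL-3-specific alpha chain, was the least abundant member. WT libraries held 325, 209 and 62.0 normalized counts, and Csf1r_het libraries 64.7, 276 and 76.9. Csf2_het libraries held 44.9, 24.4 and 42.2, and Dhet 27.8 and 54.0. The 5 libraries with a deleted Csf2 copy, in Csf2_het and Dhet, were thus below the 6 others, as were 0.809% of the genes tested, whereas WT and Csf1r_het overlapped. The log2 difference from WT was -2.14 in Csf2_het (SE 0.86, limma adjusted p = 0.215) and -2.03 in Dhet (SE 0.97, limma adjusted p = 0.505). Averaged over both Csf1r genotypes it was -1.82 (95% interval -3.22 to -0.42, limma adjusted p = 0.362), a comparison in which 0.718% of genes were called. DESeq2 on the recovered reads called Il3ra in Csf2_het (-2.37, DESeq2 adjusted p = 0.0330), where it called 9.24% of genes. WT replicate 3 (62.0) was close to the deleted groups, and the WT libraries themselves ran from 62.0 to 325.

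Csf3r (ENSMUSG00000028859.14, mm10 chr4:126024550-126044440, forward strand), the G-CSF receptor, passed the test against WT in no group. WT libraries held 3411, 1472 and 3531 normalized counts, Csf1r_het 1178, 1640 and 1948, Csf2_het 2432, 2714 and 2049, and Dhet 2517 and 3359. The lowest WT library lay within the range of Csf1r_het. The log2 difference from WT was -0.75 in Csf1r_het (95% interval -1.52 to 0.03, limma adjusted p = 0.328), -0.13 in Csf2_het and 0.16 in Dhet. In Csf1r_het it passed with array weights (-0.93, limma adjusted p = 0.0202) and without WT replicate 2 (-1.16, limma adjusted p = 0.0456). Without that library the interaction passed as well (1.45, limma adjusted p = 0.0490). Neutrophil markers, 9 genes led by S100a8 and S100a9, varied far more, from 25908 to 748579 normalized counts in sum. Csf3r in WT replicate 1, the WT library with the lowest neutrophil sum (42104), was 3411, and in WT replicate 3, with the highest (748579), 3531. Csf1r_het replicate 3, with the highest sum of its group (440262), held the most Csf3r of the group (1948). Dhet replicate 2 likewise had the higher sum (705827) and the higher Csf3r (3359) of its group, and Dhet had the highest group mean of both. In Csf2_het it was replicate 2, with the lowest sum (108653), that held the most Csf3r (2714). The neutrophil sums were 635954 and 705827 in Dhet and 108653 to 192913 in Csf2_het, and their part in Csf3r was not tested.

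Set against each other, the single heterozygotes did not differ in the GM-CSF receptor chains beyond their spread. Csf2_het minus Csf1r_het was -0.38 for Csf2rb (95% interval -1.07 to 0.31) and -0.35 for Csf2ra (-1.05 to 0.36), each with a limma adjusted p = 1, in a comparison added after the values were seen that called 0.0227% of genes. Dhet minus Csf2_het was 0.43 for Csf2rb (95% interval -0.34 to 1.20) and 0.36 for Csf2ra (-0.43 to 1.15), and this comparison called 0.0227% of genes. Dhet minus Csf1r_het was 0.05 for Csf2rb (95% interval -0.73 to 0.82) and 0.01 for Csf2ra (-0.77 to 0.80), with 0.00756% of genes called. Both reversed to slightly below 0 with edgeR, DESeq2 or centring on the library median. The interaction asks whether the joint loss differs from the sum of the single losses. It was 1.92 for Csf2rb (95% interval 0.88 to 2.95, limma adjusted p = 0.0627) and 1.64 for Csf2ra (0.59 to 2.70, limma adjusted p = 0.106), where 1.85% of genes were called. DESeq2 on the recovered reads passed both, with adjusted p-values of 0.0122 and 0.0329, among 7.58% of genes it called. The Csf2rb interaction also passed when array weights were used, when WT replicate 2, WT replicate 3 or Csf1r_het replicate 2 was left out and when both 24-month libraries were left out. The 3 differences share the heterozygous libraries with each other and with the interaction, which also uses the WT libraries. These values are thus not independent of each other.

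Relative to Csf1r, the GM-CSF receptor chains were lowest in Csf2_het. Csf2rb per 1000 normalized counts of Csf1r was 64.2, 134 and 57.8 in WT and 70.7, 64.0 and 73.5 in Csf1r_het. It was 24.2, 24.5 and 20.0 in Csf2_het and 48.7 and 56.2 in Dhet. Csf2ra per 1000 Csf1r was 46.4, 62.6 and 32.4 in WT, 70.2, 27.0 and 50.7 in Csf1r_het, 15.6, 18.7 and 12.6 in Csf2_het and 24.0 and 47.7 in Dhet. Both genes had their 3 lowest ratios in Csf2_het, as 5.66% of all genes tested did. In Csf1r_het the Csf2rb ratios lay within the WT range and the Csf2ra ratios ran from below to above it. Csf1r itself, deleted in 1 copy in Csf1r_het and Dhet, averaged 27202 and 35203 there, against 59615 in Csf2_het and 66039 in WT. A lower Csf1r raises these ratios, so between these genotypes they do not compare the receptor chains alone. Csf2rb itself averaged 1356 in Csf2_het, 1854 in Csf1r_het and 1829 in Dhet. Ratios were chosen after the values were seen and are given without a test.

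**Figure D4:**
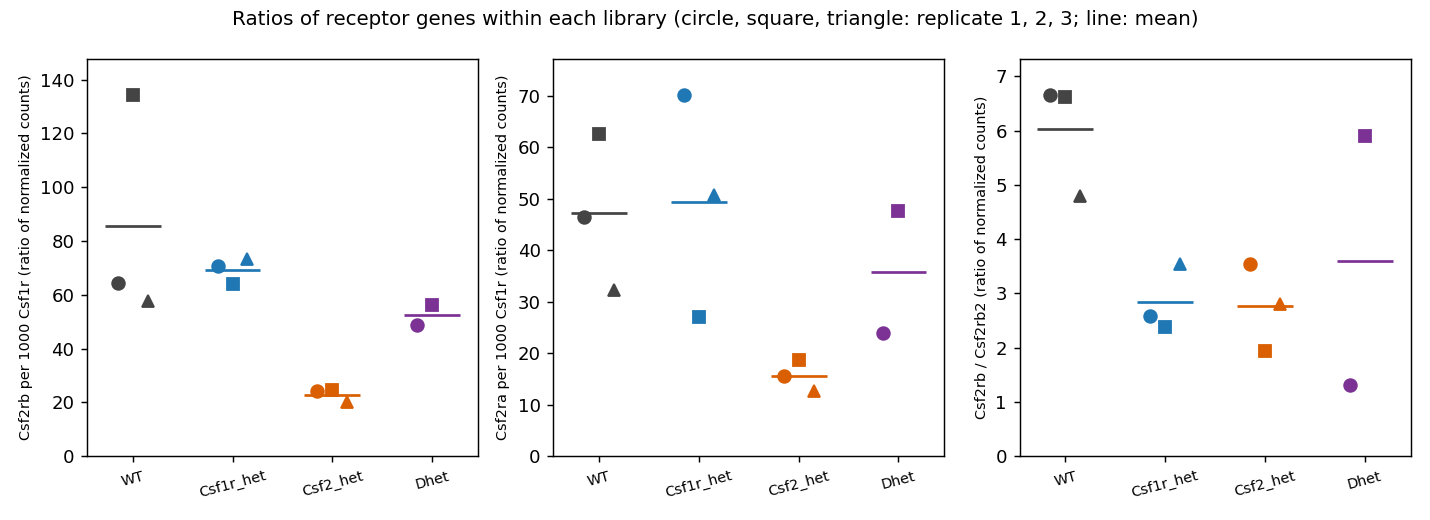
Ratios of normalized counts within each library, by genotype group: Csf2rb and Csf2ra per 1000 Csf1r, and Csf2rb to Csf2rb2 (vertical axes, linear from 0). Symbols are replicates and lines are means. The 3 Csf2_het libraries are lowest in the first 2 panels, and WT is highest in the last apart from Dhet replicate 2 (5.89).

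The genes whose levels were most like those of each member were ranked by Pearson r of log2 values over the 11 libraries, among 10827 named genes. For Csf1r they were Kdm1a (r = 0.94), Sgpl1 (0.91) and Tlr7 (0.88). For Csf2rb they were Itgal (r = 0.96), Cd44 (0.96) and Cd47 (0.95), and for Csf2ra Sept9 (r = 0.97), Flna (0.96) and Xdh (0.95). Genes like Il3ra included Fam26f (r = 0.94) and Serpina3f (0.93). Csf1 was most like Creb3l1, Smim3 and Hs6st1, Csf2rb2 most like Apeh, Foxo3 and Hinfp, and Csf3r most like Dpf2, Hbp1 and Arrb2, with r from 0.89 to 0.92. Among the members themselves Csf2ra and Csf2rb were the most alike pair (r = 0.89), and Csf2rb2 had r = 0.53 with Csf2rb. All points share the 4 genotype groups and the library composition, so these values describe likeness in this set of libraries.

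Some kinases and other genes that act in CSF1R signalling, whether they pass the signal on or limit it, also fell in the heterozygotes. Of 27 such genes, 0 rose and 6 fell in Csf1r_het, 0 and 7 in Csf2_het and 0 and 2 in Dhet, and the others did not pass. Over all genes tested 0.885%, 2.84% and 0.499% were called lower. With edgeR 3, 7 and 1 of the 27 fell. Their median log2 difference was -0.996, -0.93 and -0.76, against -0.12, -0.02 and 0.02 over all genes. The Src-family kinase Fgr fell by 2.30 in Csf1r_het (SE 0.35, limma adjusted p = 0.0126), by 3.28 in Csf2_het (SE 0.35, limma adjusted p = 0.00041) and by 2.02 in Dhet (SE 0.39, limma adjusted p = 0.0399, edgeR adjusted p = 0.0757). Syk, the tyrosine kinase recruited to ITAM adaptors, fell by 1.68 in Csf1r_het and 1.92 in Csf2_het. The phosphatase Ptpn6 fell in Csf1r_het (log2 difference -1.62) and in Csf2_het (-1.66). The kinase Ptk2b fell in Csf1r_het (-1.35), Csf2_het (-1.31) and Dhet (-1.98). EdgeR did not call Ptk2b in Csf1r_het (edgeR adjusted p = 0.0590). For the interaction 4 of the 27 passed upward, led by Fgr (3.57, SE 0.52, limma adjusted p = 0.00874), with Ptpn6 (2.29) and Syk (2.37). Over all genes tested 1.2% passed upward for the interaction. Myeloid blood cells also express these kinases, the monocyte marker sums given above were likewise lower in each heterozygous group than in WT, and their part in these falls was not tested.

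Among genes downstream of the beta chain, Stat3 passed in both single heterozygotes. Of the 12 genes of that list, Stat3, a transcription factor, fell in Csf1r_het (-1.94, SE 0.32, limma adjusted p = 0.0178) and in Csf2_het (-1.60, SE 0.32, limma adjusted p = 0.0155). The survival factor Mcl1 fell in Csf2_het (-1.39, limma adjusted p = 0.0360), a call that edgeR did not make (edgeR adjusted p = 0.0546) and that held in 12 of 22 alternatives. The falls were thus 1 of 12 in Csf1r_het, where 0.885% of genes were called lower, 2 of 12 in Csf2_het, where 2.84% were, and 0 of 12 in Dhet. The list's medians were -1.25, -1.38 and -1.15. For the interaction Stat3 passed upward (2.48) and the feedback inhibitor Socs2 downward (-5.19), the latter not with edgeR (edgeR adjusted p = 0.0667). Of all genes tested, 1.2% passed upward and 0.643% downward for the interaction. Of 13 transcription factors of macrophages that act on Csf1r, Spi1, which encodes PU.1, fell in Csf2_het (-1.15, SE 0.28, limma adjusted p = 0.0391), and 0 passed in Csf1r_het or Dhet. EdgeR did not call Spi1 (edgeR adjusted p = 0.0671), and the call held in 9 of 22 alternatives. Their median in Dhet was -0.05 with limma but 0.25 with edgeR.

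Other receptors of the same families were compared from lists drawn up in the same way. Of 26 type I cytokine receptors 18 were tested, and Il4ra, the IL-4 receptor alpha chain, fell in Csf1r_het (-1.68, limma adjusted p = 0.0309). The common gamma chain Il2rg fell in Csf2_het (-1.84, limma adjusted p = 0.0157), and 0 of the 18 passed in Dhet. Over all genes tested 0.885% were called lower in Csf1r_het, 2.84% in Csf2_het and 0.499% in Dhet, and 1.2% passed upward for the interaction. Of 6 class II cytokine receptors none passed against WT, and Ifnar1, a type I interferon receptor chain, passed for the interaction (2.20, limma adjusted p = 0.0425), though not with edgeR or with values centred on the library median. Of 6 receptor tyrosine kinases and ligands of the CSF1R class 3 were tested and none passed. The lowest p there was that of Flt3 in Csf2_het (-2.22, limma adjusted p = 0.170).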

How the data were processed

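RNA was sequenced from 11 libraries of sorted microglia. Per the submitters' processing notes, kallisto 0.43.1 and DESeq2 were used with the mm10 build. For DESeq2 the version is not stated in these sources. The deposited signal holds a value for each gene in each library, a count that the authors divided by the library's size factor. Divided by the step between values, 100% of them were whole within 0.02 reads, which gave reads and depth. The 13223 genes with a mean of at least 10 were tested as log2(value + 1) in 1 limma fit of all libraries with a trended prior (7 residual and 5.90 prior degrees of freedom) and Benjamini-Hochberg adjustment at 0.05 within each contrast. All 7 members passed this filter. The fit used limma 3.58.1 in R 4.3.3. DESeq2 1.42.0 and edgeR 4.0.16 were run on the recovered reads as alternatives. Others were pseudocounts, filters, median centring, only the groups compared, array weights, a replicate block, leaving out libraries and, added after the values were seen, the summed copies. The fit was tested on simulated data. The members, pathway lists and marker lists were chosen with earlier results of these data known. The rule for named genes took every member, the 3 genes most like each (mean of at least 50, predicted genes left out), up to 3 called genes per pathway list and contrast, the gene with the lowest p of a list without calls, and the 2 most abundant genes of a marker list. A few genes taken by this rule are not reported here. Ddx3y and Xist were used only to describe the libraries, and Tmem119 is named as the gene of the sort. Lengths and gene models came from GENCODE vM21, in which Csf1, Csf3r and Il3ra have the coordinates of the deposited table and the other members do not.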

Additional observations from a re-analysis of the deposited data

How the results depend on the processing

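Of the members' calls, that of Csf2rb in Csf2_het held under all 23 alternatives run. Csf2rb in Csf1r_het was not called with values centred on the library median (log2 difference -1.36, limma adjusted p = 0.0537), with only the 2 groups in the fit (0.172), with edgeR (0.0624), with the copies summed (0.0947) or without both 24-month libraries (-1.77, limma adjusted p = 0.0717). It was also lost without WT replicate 1, Csf1r_het replicate 1 or 3 and any Csf2_het or Dhet library, and the causes were not tested. With 2 or 3 libraries a group, intervals of the members were wide, and Il3ra rested on 31 to 506 reads a library. No strong pairing by replicate number was seen: 15 same-numbered pairs had correlations of -0.21 to 0.06, and differently numbered pairs -0.20 to 0.31. Values were first centred on the group mean, which ties the libraries of a small group together, so this check cannot exclude a weaker pairing. With the replicate block, the calls of Csf2rb and Csf2ra in Csf2_het held, that of Csf2rb in Csf1r_het was lost (limma adjusted p = 0.111), and limma called 28, 256 and 48 genes in Csf1r_het, Csf2_het and Dhet against WT, 0 for Dhet against either single heterozygote and for Csf2_het against Csf1r_het, 56 for Csf2 copy loss and 14 for the interaction. Without the block these counts were 174, 482, 70, 1, 3, 3, 95 and 244.

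Counts of called genes depended on the setting. Array weights gave 2602, 1738 and 106 for Csf1r_het, Csf2_het and Dhet against WT, 20 for Dhet against each single heterozygote, 97 for Csf2_het against Csf1r_het, 8 for Csf1r copy loss, 219 for Csf2 copy loss and 1592 for the interaction. DESeq2 gave 828, 1238, 361, 118 and 179, 61, 47, 360 and 995 in that order. Without both 24-month libraries they were 26 in Csf1r_het, 310 in Dhet, 200 and 221 for Dhet against Csf1r_het and Csf2_het, 1 for Csf2_het against Csf1r_het, 56 and 216 for the copy losses and 392 for the interaction. EdgeR gave 100 in Csf1r_het, 26 in Dhet and 2 for Dhet against Csf1r_het. With only the groups compared, limma called 0 in Csf1r_het and in Dhet against WT (1724 and 985 at an unadjusted p under 0.05), 13 for Dhet against Csf2_het and 6 for Csf2_het against Csf1r_het. A pseudocount of 0.5 gave 0 for Dhet against Csf1r_het and a pseudocount of 5 gave 3, and 6 for Dhet against Csf2_het. Leaving out 1 library at a time gave 0 to 442, 172 to 675 and 2 to 174 for these 3 groups against WT, 0 to 121 and 0 to 85 for Dhet against Csf1r_het and Csf2_het, 0 to 5 for Csf2_het against Csf1r_het, 0 to 13 and 19 to 159 for the copy losses and 47 to 911 for the interaction.

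No difference that changed sign was itself called. Their values in the fit of all libraries ran from -0.35 (Csf2rb2 in Dhet against WT) to 0.77 (Csf2rb2 for the interaction), with Csf1 in Dhet against Csf2_het at 0.49. For Dhet against Csf1r_het, Csf2ra became -0.15 when median centred, -0.033 with array weights, -0.028 with edgeR, -0.0329 with DESeq2, -0.0754 with the replicate block and -0.33 without both 24-month libraries. Csf2rb became -0.11 when median centred, -0.0628 with edgeR, -0.0735 with DESeq2 and -0.0284 with the block. Csf2rb2 became -0.11 when median centred and -0.0404 with the block. Csf2rb2 in Dhet against WT became 0.0729 with edgeR, 0.0979 with DESeq2 and 0.83 without both 24-month libraries, and its mean for Csf1r copy loss 0.21, 0.24 and 0.38. Without both 24-month libraries its mean for Csf2 copy loss was 0.45 and Csf2_het minus Csf1r_het 0.0709, while Csf1 in Csf1r_het was -0.0685, Csf3r in Dhet -0.0511 and Il3ra in Dhet against Csf2_het -0.36. That Il3ra value was -0.0024 when median centred and -0.17 with the block. Array weights gave -0.31 for Csf1 in Csf1r_het and -0.16 for Csf3r in Dhet. Csf1r in Csf2_het was 0.0055 when median centred. Leaving out 1 library gave -0.37 to 0.21 for Csf1r and -0.54 to 0.0883 for Csf3r in Csf2_het, and -0.19 to 0.54 for Csf1 in Csf1r_het. In Dhet it gave -0.26 to 0.38 for Csf3r and -1.52 to 0.83 for Csf2rb2. For Dhet against Csf1r_het it gave -0.28 to 0.31 for Csf2ra, -0.23 to 0.32 for Csf2rb and -1.13 to 1.23 for Csf2rb2, and against Csf2_het -0.19 to 1.18 for Csf1, -0.81 to 1.55 for Csf2rb2 and -0.36 to 0.58 for Il3ra. For Csf1r copy loss it gave -0.60 to 0.58 for Csf2rb2 and -0.56 to 0.0371 for Il3ra, and for Csf2 copy loss -0.92 to 0.26 for Csf2rb2. For the interaction it gave -0.44 to 0.93 for Csf1 and -0.41 to 1.95 for Csf2rb2, and for Csf2_het against Csf1r_het -0.0508 to 0.53 for Csf1 and -0.59 to 0.0709 for Csf2rb2.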
